A study of Mus musculus with 3 samples.

Results

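The genes of the cornified envelope were examined in keratinocytes from mouse skin wounds. The set held every feature whose symbol begins with Lce or Sprr, together with Lor, Flg, Flg2, Ivl, Krtdap, Sbsn, Hrnr, Rptn, Tgm1, Tgm3, Krt1, Krt10, Krt2, Cnfn and Casp14, which gave 45 genes of the 19070 features. Of these, 21 formed a homeostatic list (Lor, Flg, Flg2, Hrnr, Krt1, Krt10, Krt2, Krtdap, Sbsn, Casp14, Tgm3 and 10 Lce1 genes). A further 17 formed a wound-induced list (Sprr1a, Sprr1b, 9 Sprr2 genes and 6 Lce3 genes), and 7 were in neither (Ivl, Tgm1, Rptn, Cnfn, Sprr3, Sprr4 and Lce6a). The list names are background knowledge about these genes, since no unwounded skin was among the libraries.

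All animals were female C57BL/6J mice wounded on postnatal day 50, with a round dorsal excision of 5 mm held open by a sutured splint and covered with a film dressing. The untreated library (titled Sham) received nothing else. The GelMA library received 20 µL of gelatin methacryloyl, a hydrogel that was hardened on the wound with ultraviolet light for 1 min, and the AN-GelMA library received the same gel loaded with apoptotic neutrophils. Wounds were taken after 5 days with a 2 mm rim of surrounding skin, so wound edge and intact skin are mixed in every library. Cells were fixed and measured with a probe-based single-cell assay (10x Flex), with 1 library per group and no number of mice given, so animal, piece of skin and treatment cannot be told apart. The files of the AN-GelMA library carry the word heat, which the labels do not explain. With 1 library per group there was no test between groups: intervals in parentheses are 95% and cover counting error only. Values given in threes are always in the order untreated, GelMA, AN-GelMA.

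As a keratinocyte moves up through the epidermis it changes from a dividing basal cell to a spinous cell, then to a granular cell, and dies as a flat corneocyte. In the last steps its membrane is replaced by the cornified envelope, a shell of loricrin, involucrin, small proline-rich (Sprr) and late cornified envelope (Lce) proteins cross-linked by transglutaminases and anchored to keratin filaments bundled with filaggrin. Many of these genes lie side by side in the epidermal differentiation complex, and the Sprr and Lce3 families are known to be switched on in injured or inflamed epidermis.

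The AP-1 transcription factors (Fos and Jun proteins) are known regulators of envelope genes, so the promoters were searched for the AP-1 letters TGACTCA or TGAGTCA, which are reverse complements of each other and so cover both strands. RefSeq windows (GRCm38.p6) of 250 bases before the transcription start were found for 42 of the 45 genes, 34 of them on chromosome 3. The letters were in 8 of 12 Sprr promoters and in 0 of 16 Lce promoters, against 4.46% of all 32851 windows. By list, 8 of 16 wound-induced and 2 of 19 homeostatic promoters (Lor and Krtdap) held them, and of the other 7 only Ivl did. In 7 Sprr2 promoters the match nearest the start began 182 to 198 bases upstream. Sprr2k had 2 matches, and the nearest, at 182, read TGACTCA. The others had 1 match each, reading TGAGTCA and beginning 193 to 198 bases upstream, so they share its place as well as its letters. A match is a description of the letters and not evidence of binding. The promoters shown are those of the Sprr2 genes with a match that had the most UMIs, of Sprr1a with 2 matches, and of Ivl and Lor from outside that list. Each is written 5′ to 3′ on the gene's strand with the AP-1 letters in capitals.
Sprr2d promoter, GRCm38.p6 chr3:92338890-92339139, plus strand: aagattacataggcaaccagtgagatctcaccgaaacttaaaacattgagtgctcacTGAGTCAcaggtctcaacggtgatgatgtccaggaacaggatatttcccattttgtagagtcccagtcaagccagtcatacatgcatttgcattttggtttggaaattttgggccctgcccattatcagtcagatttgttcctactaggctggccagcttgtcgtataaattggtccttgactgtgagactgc
Sprr2h promoter, GRCm38.p6 chr3:92385435-92385684, plus strand: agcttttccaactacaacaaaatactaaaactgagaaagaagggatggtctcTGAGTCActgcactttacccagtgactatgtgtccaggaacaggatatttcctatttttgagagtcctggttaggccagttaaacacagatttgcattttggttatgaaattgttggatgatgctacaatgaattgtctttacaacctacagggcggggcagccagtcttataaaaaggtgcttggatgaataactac
Sprr1a promoter, GRCm38.p6 chr3:92485882-92486131, minus strand: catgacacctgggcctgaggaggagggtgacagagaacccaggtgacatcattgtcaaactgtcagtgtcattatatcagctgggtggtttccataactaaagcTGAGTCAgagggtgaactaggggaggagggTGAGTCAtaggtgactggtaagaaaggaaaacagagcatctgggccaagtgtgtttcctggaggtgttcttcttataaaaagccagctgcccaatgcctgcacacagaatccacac
Ivl promoter, GRCm38.p6 chr3:92573736-92573985, minus strand: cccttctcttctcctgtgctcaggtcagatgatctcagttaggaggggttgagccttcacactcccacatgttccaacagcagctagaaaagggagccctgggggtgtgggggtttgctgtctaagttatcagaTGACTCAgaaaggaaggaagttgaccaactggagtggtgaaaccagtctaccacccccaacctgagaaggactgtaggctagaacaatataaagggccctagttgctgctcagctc
Lor promoter, GRCm38.p6 chr3:92083143-92083392, minus strand: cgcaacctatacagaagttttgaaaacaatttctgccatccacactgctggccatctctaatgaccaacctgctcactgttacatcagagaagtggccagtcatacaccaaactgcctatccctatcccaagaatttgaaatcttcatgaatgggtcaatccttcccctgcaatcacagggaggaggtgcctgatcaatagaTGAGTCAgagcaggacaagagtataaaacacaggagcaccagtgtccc
The matches nearest the start began 193 bases upstream in Sprr2d, 198 in Sprr2h, 116 in both Sprr1a and Ivl, and 48 in Lor.

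The libraries held 6073, 11449 and 9648 barcodes and 8945496, 21613482 and 14156692 UMIs, of which 1.44%, 1.56% and 1.79% came from the 45 genes. Between 94 and 135 barcodes were shared by any pair of libraries. Filters and doublet removal left 5725, 10682 and 9113 cells. Clusters were made without the 45 genes among the variable genes and named by markers, so each name means cells like that class. Spinous-like and granular-like clusters together are called suprabasal, and numbered 866, 1314 and 1587 cells with 1842949, 4092086 and 3257140 UMIs. Their median depth was 1648, 2548.5 and 1744 UMIs per cell, highest in GelMA. The GelMA library was also rich in hair-forming cells (2768, against 196 in untreated and 57 in AN-GelMA).

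The label held in these cells. The 45 genes made up 5.58% (5.55 to 5.61), 6.14% (6.11 to 6.16) and 6.24% (6.21 to 6.26) of suprabasal UMIs, but 0.224%, 0.210% and 0.235% in the main basal-like cluster. In macrophage-, fibroblast- and endothelial-like cells, which should not express these genes and served as the background of free RNA, they made up 0.0599%, 0.117% and 0.0732%. The background was highest in GelMA.

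Over the keratinocyte classes of the 3 libraries, 31 of the 45 genes had at least 100 UMIs and are described by name: 20 homeostatic, 5 wound-induced and 6 others. Of the remaining 14, Krt2 had 70 UMIs, Sprr3 had 3, and 12 wound-induced genes (6 Sprr2 and all 6 Lce3) had 8 to 81. Levels are CPM, UMIs of a gene per 1000000 UMIs of that cell class in that library. Probes differ between genes, so CPM are compared within a gene and not between genes. Runs of 50 bases shared with another member occur in 21 of the 45 transcripts. The share of such runs was 35.7% to 49.3% for Lce3c, Lce3d, Lce3e and Lce3f, 9.12% to 25.4% for 9 of the 10 Lce1 genes (none in Lce1m) and at most 10.6% in Sprr2 genes, so counts of close Lce paralogs are uncertain.

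**Figure D1:**
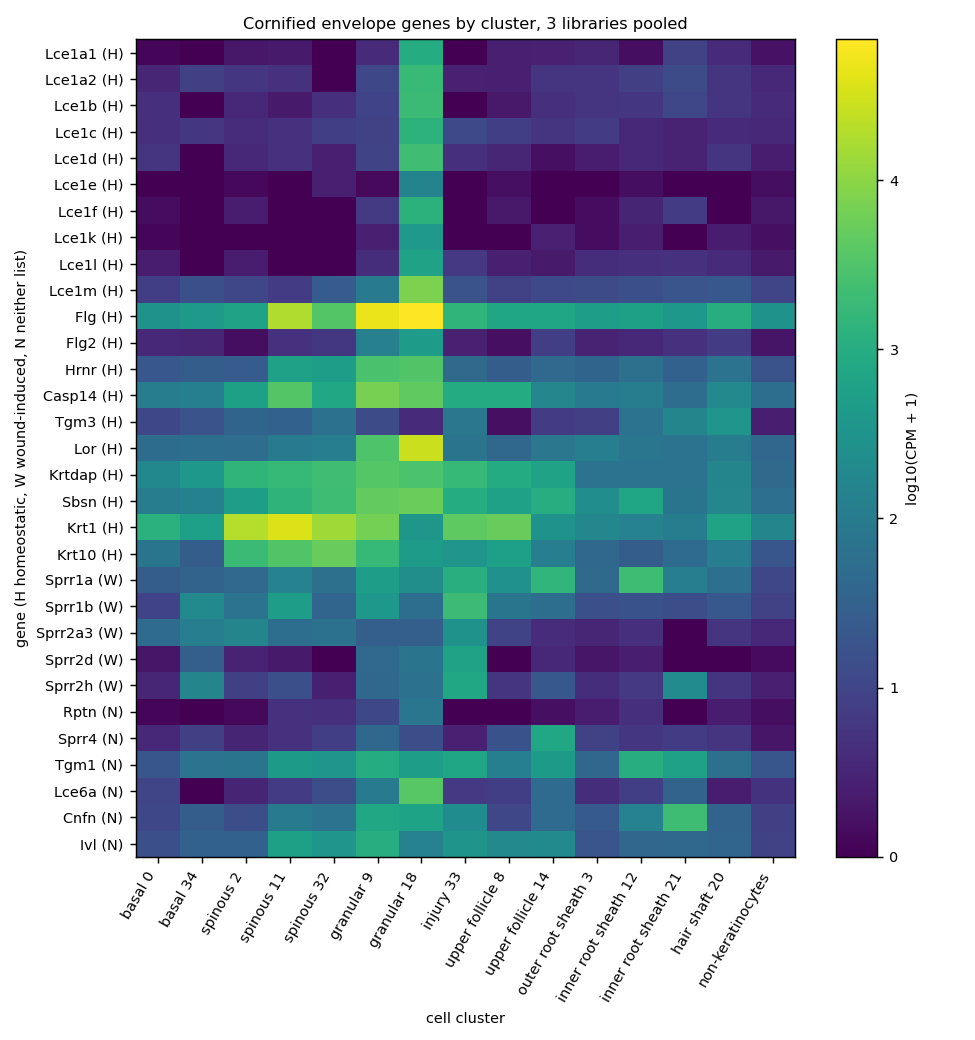
Each cell of the map is 1 of the 31 named genes (vertical axis, with its list) in 1 keratinocyte cluster or in the non-keratinocyte background (horizontal axis), coloured by log10(CPM + 1) with UMIs pooled over the 3 libraries. The 10 Lce1 genes, Lce6a and Lor stand out in granular-like cluster 18, and Sprr1b, Sprr2d and Sprr2h in injury-like cluster 33.

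The clusters separated the genes by stage. Of the named genes, 17 were highest in granular-like cluster 18 (led, apart from the 45 genes, by Cpa4, Kprp and Ecm1; 107, 126 and 192 cells): 15 homeostatic genes, Lce6a and Rptn. Each of the 10 Lce1 genes had between 92.4% and 97.1% of its keratinocyte UMIs in that cluster, as against 72.4% for Lor, 53.9% for Flg2 and 29.5% for Flg. Granular-like cluster 9 (led by Wfdc21, Il36rn and Abhd12b; 235, 336 and 451 cells) was the highest for Casp14, Krtdap and Ivl. Krt1 was highest in spinous-like cluster 11. Krt10 was highest in spinous-like cluster 32 with the libraries pooled and in GelMA, but in untreated and AN-GelMA it was higher in cluster 11. These are descriptions of the cells, because clusters are not independent samples.

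Krt1 and Krt10 encode the partner keratins that form the filaments of suprabasal cells. Krt1 stood at 15737 (15556 to 15919), 12894 (12785 to 13005) and 15880 (15744 to 16018) CPM in suprabasal cells, lowest in GelMA. Krt10 stood at 1760 (1700 to 1821), 2714 (2663 to 2764) and 1324 (1285 to 1364) CPM, highest in GelMA. The partners thus lay in opposite order between GelMA and the other libraries. The log2 ratio of GelMA to untreated was -0.29 for Krt1 and 0.62 for Krt10 (0.57 to 0.68).

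Krt10 was higher in GelMA in every suprabasal cluster. Its CPM were 1530, 2601 and 1356 in cluster 2, 3630, 4148 and 2833 in cluster 11, 3486, 6268 and 2434 in cluster 32, 1437, 2416 and 977 in cluster 9, and 377, 619 and 330 in cluster 18. Krt1 did not follow one order: it was 19931, 18107 and 22467 CPM in cluster 2 and 38773, 29572 and 38925 in cluster 11, lowest in GelMA, but 6601, 7491 and 5840 in cluster 9, highest there. Background cells held Krt10 at 17.0, 37.9 and 13.4 CPM and Krt1 at 153, 182 and 162 CPM, far below. In Langerhans-like cells, which lie within the epidermis, Krt1 was counted at 1090, 91.5 and 2686 CPM. The whole homeostatic list had the same order in T and NK cell-like cells, at 2605, 1374 and 5784 CPM. The source of this RNA was not tested. Krt2, a keratin of the upper epidermis, had 2, 21 and 15 UMIs in suprabasal cells, too few to compare with untreated.

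Filaggrin (Flg) bundles keratin filaments and yields the moisture-holding amino acids of the horny layer; Flg2 and hornerin (Hrnr) are its relatives. Flg stood at 21768 (21556 to 21982), 26219 (26062 to 26376) and 26597 (26420 to 26775) CPM, lowest in untreated. Hrnr was at 1469 (1414 to 1525), 1285 (1250 to 1320) and 1440 (1399 to 1482) CPM, lowest in GelMA. Flg2 was at 89.0 (75.9 to 104), 126 (115 to 137) and 62.6 (54.3 to 71.8) CPM, highest in GelMA. The 3 relatives therefore had 3 different orders over the libraries, and only Flg2 passed 1.5 times, with a log2 ratio of AN-GelMA to GelMA of -1.01 (-1.25 to -0.77). Repetin (Rptn), another relative, was at 12.5, 13.2 and 13.5 CPM with overlapping intervals.

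Loricrin (Lor) is the main protein of the finished envelope. It stood at 3083 (3003 to 3164), 4355 (4291 to 4419) and 4801 (4726 to 4877) CPM in suprabasal cells, lowest in untreated. The order turned between the granular-like clusters. In cluster 18 Lor was at 20541, 25582 and 33229 CPM, highest in AN-GelMA, while in cluster 9 it was at 2107, 4886 and 1520 CPM, highest in GelMA. The log2 ratio of AN-GelMA to GelMA was 0.38 (0.34 to 0.41) in cluster 18 and -1.68 (-1.76 to -1.60) in cluster 9. At a common depth of 500 UMIs, 46.4%, 47.6% and 40.8% of cluster 9 cells had a Lor UMI, so the share of cells differed much less than the level. In the background Lor was at 25.1, 82.0 and 32.4 CPM.

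The 10 Lce1 genes encode small proteins added late to the envelope, and in these cells they marked the same cluster but did not keep 1 order over the libraries. Lce1m, with the most UMIs, stood at 1027 (981 to 1074), 835 (807 to 863) and 916 (883 to 949) CPM. Lce1l was at 46.1 (36.8 to 57.0), 90.4 (81.4 to 100) and 65.1 (56.6 to 74.5) CPM, Lce1a1 at 85.7, 150 and 85.4, and Lce1e at 11.9, 29.1 and 6.14. These 3 were highest in GelMA, with log2 ratios of GelMA to untreated of 0.97 (0.63 to 1.33), 0.81 (0.55 to 1.07) and 1.28 (0.62 to 2.01).

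Lce1b was also past 1.5 times, at 171, 273 and 211 CPM. Lce1d (256, 264 and 262 CPM) and Lce1k (44.5, 43.0 and 54.3) stayed within 1.5 times, and Lce1c was lowest in GelMA at 179 (160 to 199), 141 (129 to 152) and 163 (150 to 178) CPM. Lce1a2 stood at 198, 249 and 189 CPM and Lce1f at 124, 171 and 143. Lce6a, the lone member of its subfamily and in neither list, followed Lce1m and Lce1c with 520 (487 to 554), 414 (395 to 435) and 484 (460 to 508) CPM.

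Casp14, a protease that takes part in filaggrin breakdown, stood at 3276 (3194 to 3360), 3010 (2958 to 3064) and 3850 (3783 to 3918) CPM, highest in AN-GelMA. The secreted differentiation proteins Krtdap and Sbsn were at 2359, 2569 and 2175 CPM and at 2216 (2149 to 2285), 3287 (3232 to 3343) and 1965 (1917 to 2014) CPM, both highest in GelMA. The log2 ratio of AN-GelMA to GelMA was -0.74 (-0.79 to -0.70) for Sbsn. It passed 1.5 times there, while GelMA to untreated was 0.57, just under.

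Transglutaminases cross-link the envelope. Tgm1, the enzyme bound to the membrane, was at 421 (391 to 451), 512 (490 to 534) and 437 (414 to 460) CPM, and Tgm3, a soluble enzyme of epidermis and hair, at 16.8 (11.4 to 23.9), 34.7 (29.2 to 40.9) and 18.1 (13.8 to 23.4) CPM. Both were highest in GelMA, and only Tgm3 passed 1.5 times. Involucrin (Ivl), an early scaffold of the envelope, was at 312 (287 to 339), 482 (461 to 503) and 422 (400 to 444) CPM, and cornifelin (Cnfn), another envelope protein, at 232 (211 to 255), 403 (384 to 423) and 315 (296 to 335) CPM. Both were lowest in untreated. All 3 of Tgm1, Tgm3 and Cnfn were also found in hair cells. Over all hair-forming cells of GelMA, Tgm3 stood at 101 CPM, above its suprabasal level, while Tgm1 (484 CPM) and Cnfn (249 CPM) were below theirs. Single clusters of GelMA were higher: Tgm1 reached 1058 CPM in inner root sheath-like cluster 12, Cnfn 2228 CPM in cluster 21 and Tgm3 322 CPM in hair shaft-like cluster 20.

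**Figure D2:**
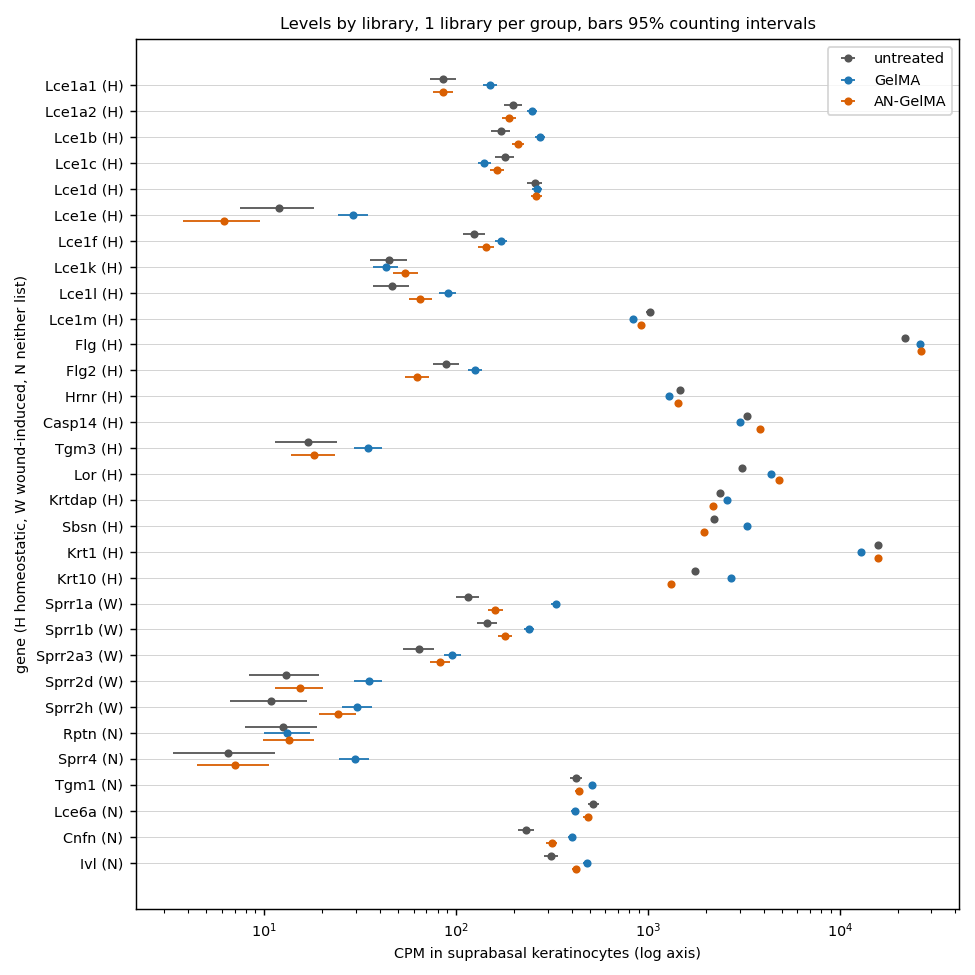
Points are CPM in suprabasal cells (horizontal, log axis) of the 31 named genes (vertical) in each of the 3 libraries, and bars are 95% counting intervals. The points of Lce1d and Rptn nearly coincide, while Sprr1a (115, 330 and 160 CPM) and Sprr4 (6.51, 29.6 and 7.06 CPM) stand apart in GelMA.

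Sprr proteins bridge other envelope proteins, and Sprr1b and the Sprr2 genes are widely used as signs of stressed epidermis. Sprr1a stood at 115 (100 to 132), 330 (313 to 348) and 160 (147 to 175) CPM in suprabasal cells. Sprr1b was at 145 (129 to 164), 240 (225 to 255) and 180 (166 to 195) CPM, and Sprr2a3 at 64.0 (53.0 to 76.7), 95.6 (86.3 to 106) and 82.3 (72.7 to 92.7) CPM. All 3 were highest in GelMA and lowest in untreated, although the Sprr2a3 intervals of AN-GelMA overlapped those of both other libraries. Sprr2d was at 13.0 (8.34 to 19.4), 34.9 (29.5 to 41.2) and 15.4 (11.4 to 20.2) CPM and Sprr2h at 10.9 (6.63 to 16.8), 30.5 (25.4 to 36.4) and 24.3 (19.2 to 30.2) CPM. Sprr4, in neither list, was at 6.51 (3.36 to 11.4), 29.6 (24.5 to 35.3) and 7.06 (4.48 to 10.6) CPM. Background levels were at most 31.5 CPM for Sprr1a and 16.8 for Sprr1b, both in GelMA.

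The GelMA level of Sprr1a was reached chiefly in the granular-like clusters, at 294, 691 and 371 CPM in cluster 9 and 78.1, 505 and 78.4 CPM in cluster 18. In spinous-like cluster 2 it was at 13.8, 62.4 and 34.7 CPM, the first of these from 10 UMIs. Sprr1b in cluster 9 was at 213, 516 and 274 CPM. In spinous-like cluster 11 it was at 436, 514 and 504 CPM, so the libraries were closer there.

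Sprr1a and Sprr4 were also genes of the hair follicle here. In upper follicle-like cluster 14 (led by Sprr4 itself, Cst6 and Plet1; 56, 677 and 98 cells), Sprr1a stood at 1921, 1469 and 1659 CPM and Sprr4 at 972, 735 and 840 CPM, which was 83.4% of the keratinocyte UMIs of Sprr4. In the GelMA inner root sheath-like cluster 12, Sprr1a was at 2159 CPM. Markers of these cells were seen in suprabasal cells at their highest in GelMA: the 7 inner root sheath markers summed to 78.1, 868 and 39.6 CPM and the 7 upper follicle markers to 1224, 2008 and 1606 CPM.

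The part of hair RNA was estimated for the hair-forming cells only. When the profile of each library's hair-forming cells was scaled to the inner root sheath and hair shaft markers found in suprabasal cells, it gave 24.4 CPM of Sprr1a in GelMA, or 7.39% of the level there. The same share was 9.77% for Tgm3, 3.19% for Tgm1 and 2.09% for Cnfn, and with it subtracted all of their calls were kept. The estimate assumes that hair RNA in suprabasal cells has the mix of the pooled profile, which was not tested. In AN-GelMA the profile came from only 57 cells, of which 52 were hair matrix-like, 5 inner root sheath-like and 0 hair shaft-like. Sprr1a was at 0 CPM in that profile, so nothing could be subtracted from its AN-GelMA level. The part of upper follicle RNA in the Sprr1a and Sprr4 levels was not tested.

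A cluster led, beside Sprr2 genes and Sprr1b, by Krt6b, S100a8 and Krt16, keratins and alarm proteins of wounded epidermis, held 35, 62 and 42 cells and was named injury-like. Sprr1b there was at 1915 (1686 to 2167), 2077 (1903 to 2263) and 2228 (2009 to 2464) CPM and Sprr1a at 889 (735 to 1066), 1134 (1006 to 1273) and 1090 (939 to 1259) CPM. These intervals overlapped between the libraries. Sprr2h, in contrast, was at 1596 (1387 to 1827), 285 (223 to 359) and 961 (819 to 1120) CPM and Sprr2d at 1018 (853 to 1206), 293 (230 to 368) and 725 (602 to 865) CPM. Both were lowest in GelMA, the reverse of their order in suprabasal cells. Sprr2a3 was at 236 (160 to 334), 337 (269 to 417) and 253 (183 to 341) CPM and Ivl at 600 (475 to 748), 174 (127 to 234) and 312 (234 to 409) CPM. Ivl was again lowest in GelMA. The markers of other classes also differed between the libraries in this cluster. Upper follicle markers summed to 1277, 4262 and 1939 CPM, inner root sheath markers to 144, 884 and 124, and basal markers to 11089, 8409 and 11562. Whether the Sprr2d, Sprr2h and Ivl levels follow this mix was not tested. No ratio was called in this cluster because 2 libraries had fewer than 50 cells.

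**Figure D3:**
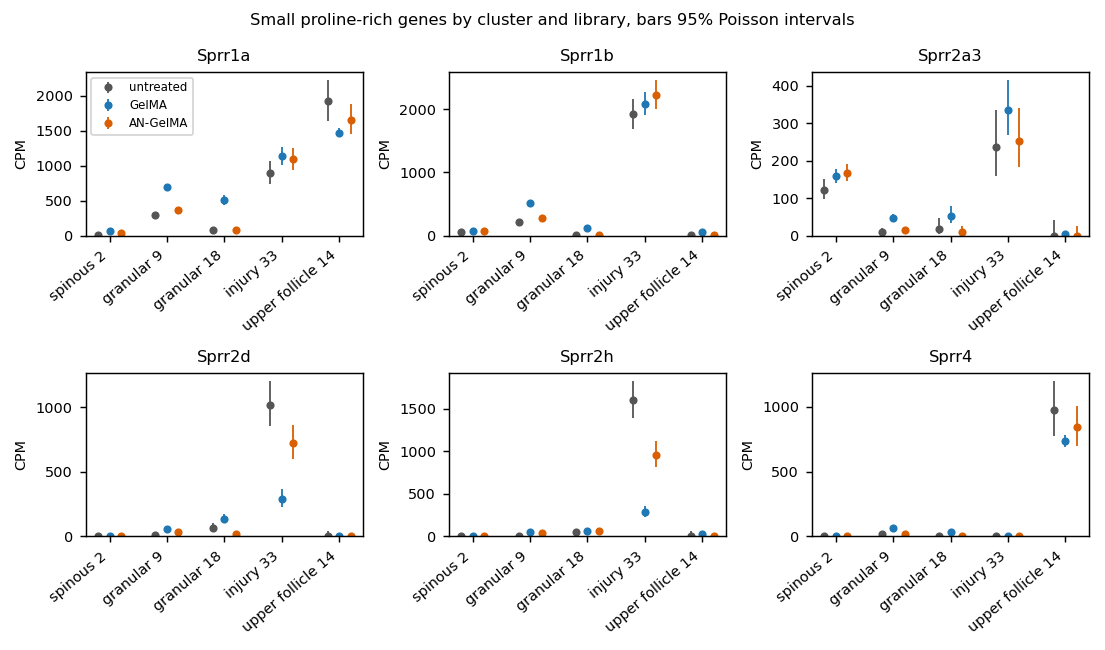
Each panel is 1 Sprr gene, with CPM on the vertical axis against 5 keratinocyte clusters, and points with 95% Poisson intervals for the 3 libraries. In injury-like cluster 33 the GelMA points of Sprr2d (293 CPM) and Sprr2h (285 CPM) lie below those of the other libraries, while Sprr4 is high only in upper follicle-like cluster 14.

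The lists were then compared in suprabasal cells, with a gene called higher or lower at a CPM ratio of 1.5 or more and at least 30 UMIs in the 2 libraries together. GelMA over untreated differs by its labels in the gel, which cannot be told apart from animal and piece of skin. Of 20 homeostatic genes with enough UMIs, 6 were higher and 0 lower (Krt10, Tgm3, Lce1a1, Lce1b, Lce1e and Lce1l), and of 7 wound-induced genes 6 were higher and 0 lower (Sprr1a, Sprr1b, Sprr2d, Sprr2h, Lce3c and Lce3e). Over all 10239 features with enough UMIs, 14.9% were higher and 6.16% lower. The median log2 ratio was 0.40 for the homeostatic and 1.06 for the wound-induced list, beside 0.05 for all features. Sprr1a was 2.87 times and Sprr1b 1.65 times as high in GelMA, and 3 of the 6 other genes were higher, namely Sprr4, Ivl and Cnfn. Lce3c (12 and 41 UMIs) and Lce3e (8 and 37 UMIs) were called with intervals that included no difference. Of the 13 named genes called, Sprr1a, Sprr4, Tgm3, Lce1a1, Lce1e and Lce1l kept the call under every alternative that could be computed. Krt10 (0.51) and Cnfn (0.36) lost it with cells thinned to 500 UMIs. Sprr2d and Sprr2h turned to the opposite sign with members among the variable genes and with classes given cell by cell, and Sprr2h also with thinned cells. Ivl lost its call under 3 of 12 alternatives (down to 0.35), Sprr1b under 2 (0.54) and Lce1b under 2 (0.56). The seventh wound-induced gene, Sprr2a3, lay just under 1.5 times at a log2 ratio of 0.58 and was called higher under 8 of 12 alternatives, up to 1.34.

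AN-GelMA over GelMA differs by its labels in the apoptotic cargo, which likewise cannot be told apart from animal and piece of skin. None of the 21 homeostatic genes was higher and 6 were lower (Krt10, Flg2, Sbsn, Tgm3, Lce1a1 and Lce1e). None of the 7 wound-induced genes was higher and 4 were lower (Sprr1a, Sprr2d, Lce3c and Lce3e), and Sprr4 was lower among the 6 others. Of all 10516 features 6.28% were higher and 17% lower. The median log2 ratio was -0.24 for the homeostatic and -1.04 for the wound-induced list, beside -0.09 for all features. Sprr1a had a log2 ratio of -1.04 (-1.19 to -0.90), Krt10 of -1.04 (-1.09 to -0.98) and Sprr1b of -0.41 (-0.56 to -0.26), the last within 1.5 times. Of the 9 named genes called, Sprr1a, Sprr4, Krt10, Lce1a1 and Lce1e kept the call under every alternative, while Tgm3 (-0.57), Flg2 (-0.17), Sbsn (-0.56) and Sprr2d (-0.12) lost it with cells thinned to 500 UMIs. Sprr2d also lost it with members among the variable genes, at a log2 ratio of -0.0023. Sprr1b was called lower under 4 of 12 alternatives, down to -0.73.

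In AN-GelMA over untreated, which differs by its labels in the whole treatment and has the same limit, the levels were closest. Of 20 homeostatic genes 1 was higher (Lor, 1.56 times) and 1 lower (Lce1e, from 22 and 20 UMIs), and of 5 wound-induced genes 1 was higher (Sprr2h) and 0 lower. None of the 6 others was called. Lor lost its call under 5 of 12 alternatives, down to a log2 ratio of 0.33, and Sprr2h under 3 of 11, down to -2.31. Over all 9675 features 3.59% were higher and 4.56% lower. The median log2 ratios were 0.00 and 0.36, beside -0.02 for all features. Each library enters 2 of the 3 comparisons, and the GelMA library stands on opposite sides of the first 2.

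**Figure D4:**
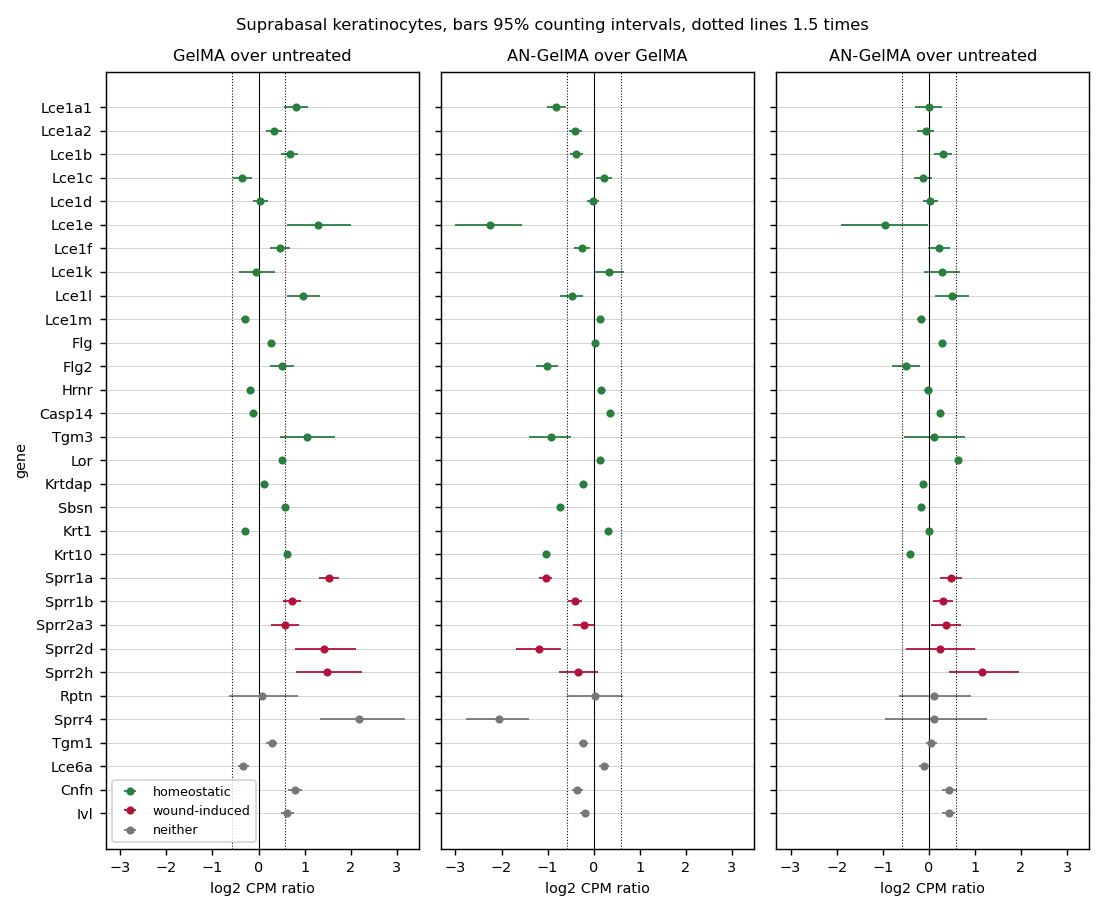
Log2 CPM ratios in suprabasal cells (horizontal) of the named genes with enough UMIs (vertical), coloured by list, for the 3 comparisons, with 95% counting intervals and dotted lines at 1.5 times. Sprr1a and Krt10 lie to the right in GelMA over untreated (1.52 and 0.62) and to the left in AN-GelMA over GelMA (-1.04 each).

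The same counts were made within the granular-like clusters. In cluster 9, GelMA over untreated had all 5 wound-induced genes with enough UMIs higher, with a median log2 ratio of 2.07 against 0.18 for the homeostatic list, beside 15.9% of 6980 features higher and 9.61% lower. Of 11 homeostatic genes there, 3 were higher (Tgm3, Lor and Krt10) and 1 lower (Lce1m, at 260, 46.8 and 96.7 CPM). In cluster 18, 4 of 6 wound-induced genes were higher (Sprr1a, Sprr1b, Sprr2d and Lce3e) and 0 lower, with a median of 1.37 against 0.32, and 7 of 19 homeostatic genes were higher (Krt10, Flg2 and 5 Lce1 genes), beside 14.7% higher and 14.9% lower of 2501 features. Sprr1b in cluster 18 rested on 2 UMIs in untreated, which gave a log2 ratio of 3.67 (1.74 to 6.75).

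In AN-GelMA over GelMA, 4 of 5 wound-induced genes were lower in cluster 9 (Sprr1a, Sprr1b, Sprr2a3 and Sprr2d) and 0 higher, and 5 of 11 homeostatic genes were lower (Tgm3, Lor, Flg2, Sbsn and Krt10) and 1 higher (Lce1m). The medians were -0.90 and -0.36, closer to each other than in all suprabasal cells. Of 7366 features there, 6.79% were higher and 18.7% lower. In cluster 18, 5 of 6 wound-induced genes were lower, with a median of -2.85 against -0.36, and of 19 homeostatic genes 9 were lower and 1 higher (Krt1), beside 18.1% higher and 13.4% lower of 3223 features. Krt1 was low in that cluster in all libraries, at 358, 267 and 440 CPM.

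Spinous-like cluster 2, the largest suprabasal cluster (398, 716 and 733 cells), had the list medians in the other order. The wound-induced median there came from only 3 genes. In GelMA over untreated, 5 of 9 homeostatic genes were higher (Krt10, Sbsn, Lor, Tgm3 and Hrnr) and 0 lower, with a median log2 ratio of 0.77, and of 3 wound-induced genes Sprr1a was higher, with a median of 0.38. Of 8774 features 15.4% were higher and 6.99% lower. In AN-GelMA over GelMA, 5 of 10 homeostatic genes were lower (Krt10, Sbsn, Lor, Hrnr and Lce1m) and 0 higher, with a median of -0.71, and of 3 wound-induced genes Sprr1a was lower, with a median of 0.07. Of 9112 features 6.85% were higher and 15% lower. Sprr2a3 and Sprr1b were within 1.5 times there in both comparisons. The homeostatic genes other than keratins summed to 2942, 3615 and 2911 CPM in this cluster. In background cells they summed to 382, 814 and 504 CPM, also highest in GelMA. The part of free RNA in the levels of this cluster was not tested.

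Over all keratinocytes, where the mix of cell classes also enters, the medians had other signs. In GelMA over untreated they were -0.14 for the homeostatic and -0.12 for the wound-induced list, and in AN-GelMA over GelMA 0.55 and 0.61. Suprabasal cells were 34.9%, 18.1% and 40.5% of keratinocytes.

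The 12 wound-induced genes with few UMIs had at most 41 UMIs in the suprabasal cells of any library. All 6 Lce3 genes had more UMIs in GelMA than in AN-GelMA: Lce3a 7 and 0, Lce3b 18 and 0, Lce3c 41 and 12, Lce3d 20 and 4, Lce3e 37 and 9, Lce3f 13 and 2. Their untreated counts were 0, 0, 12, 6, 8 and 5 in the same order, from the fewest suprabasal UMIs, and the GelMA total was the largest. Because the Lce3c to Lce3f transcripts share long runs, these counts do not stand for separate genes with certainty.

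The balance of the lists was measured as the share of wound-induced UMIs among the UMIs of both lists, which does not depend on the total of a cell class. In suprabasal cells it was 0.676% (0.626 to 0.728), 1.31% (1.26 to 1.35) and 0.779% (0.741 to 0.819). GelMA was thus the highest and its interval was apart from the others. In cluster 9 the share was 0.820%, 1.62% and 1.02%, and in cluster 18 it was 0.303%, 0.838% and 0.157%. It was also highest in GelMA in cluster 2 (0.805%, 1.21% and 1.07%) and cluster 11 (0.846%, 1.58% and 1.03%). Cluster 32 (32, 89 and 35 cells) had another order, with 0.124% (0.0255 to 0.361), 0.498% (0.382 to 0.638) and 1.68% (1.13 to 2.39), highest in AN-GelMA, from 3, 62 and 30 wound-induced UMIs. The injury-like cluster had 38.3% (36.1 to 40.4), 27.7% (26.3 to 29.1) and 39.0% (37.1 to 40.9), where GelMA was the lowest. In upper follicle-like cluster 14 the share was 29.6%, 34.9% and 34.6%, and in unnamed cluster 35 it was 2.16%, 2.77% and 2.13%. In background cells it was 3.40%, 4.84% and 2.47%, above the suprabasal share, but from 48, 75 and 76 wound-induced UMIs.

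**Figure D5:**
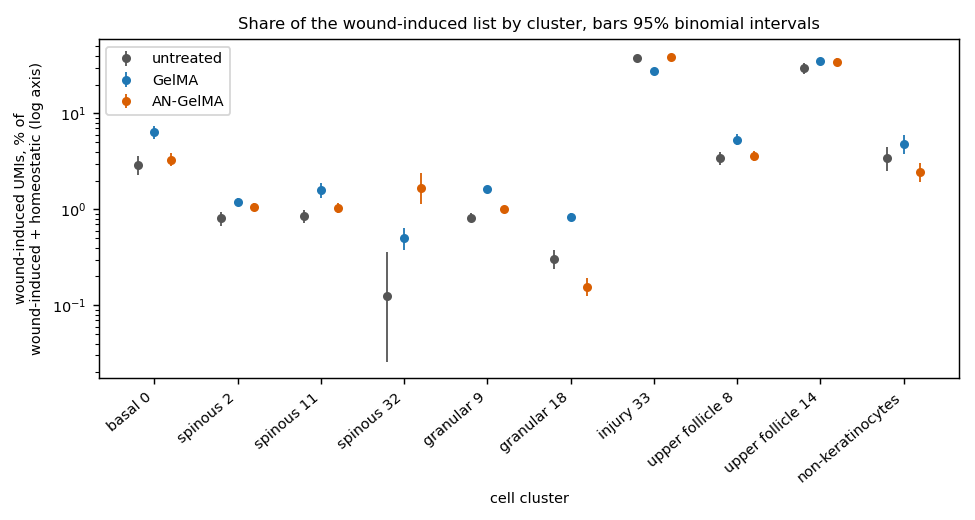
The vertical log axis gives wound-induced UMIs as a percentage of wound-induced plus homeostatic UMIs in each cluster (horizontal) for the 3 libraries, with 95% binomial intervals. In granular-like cluster 18 the shares are 0.303%, 0.838% and 0.157%, and in injury-like cluster 33 they are 38.3%, 27.7% and 39.0%.

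Single cells were compared after each was thinned to 500 UMIs. At that depth 11.5% (9.49 to 13.9), 17.0% (15.1 to 19.2) and 14.2% (12.5 to 16.0) of suprabasal cells had a wound-induced UMI, as against 0.664%, 2.06% and 0.816% of background cells (median depths before thinning 1009, 807.5 and 941 UMIs, as against 1648, 2548.5 and 1744). Before thinning the suprabasal shares were 23.7%, 41.9% and 29.9%, a wider gap. A UMI of a homeostatic gene other than a keratin was in 83.3%, 86.1% and 83.5% of suprabasal cells, so many cells would hold both lists without any link. Both were found in 10.2%, 15.7% and 12.2%. Of cells with such a homeostatic UMI 12.2%, 18.2% and 14.6% had a wound-induced UMI, against 8.28%, 9.84% and 12.2% of the other suprabasal cells. In the injury-like cluster 68.6% (50.7 to 83.1), 67.7% (54.7 to 79.1) and 66.7% (50.5 to 80.4) had a wound-induced UMI, with overlapping intervals.

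For the other genes of the barrier, 36 were listed (lipid enzymes, desmosome proteins, proteases and others) and 35 were measured in suprabasal cells with enough UMIs in GelMA. Many of them were also among the spinous and granular markers that named the suprabasal clusters. Their closeness between the libraries is therefore partly built in. In GelMA over untreated 5 were higher and 0 lower (Padi3, Cst6, Padi1, Elovl1 and Crnn), with a median log2 ratio of 0.12. Over all features in these cells 14.9% were higher and 6.16% lower. Padi3 and Padi1, which convert arginine to citrulline, had 2 and 114 UMIs and 107 and 448 UMIs. Crnn, with few UMIs, is named after its values were seen, to complete the count. Padi3, Padi1 and Crnn were among the leading genes of inner root sheath-like cluster 12, and Cst6, a protease inhibitor, led upper follicle-like cluster 14. In AN-GelMA over GelMA 3 were lower and 0 higher: Padi3 (0 UMIs in AN-GelMA, at least 30.2-fold lower with 0 taken as 3 UMIs), Crnn and Elovl1, a lipid elongase. In AN-GelMA over untreated none of 33 was called. Of all features 6.28% were higher and 17% lower in AN-GelMA over GelMA, and 3.59% and 4.56% in AN-GelMA over untreated.

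Of 17 regulators of differentiation, 2 were higher in GelMA over untreated: Maf at 179 and 288 CPM and Cebpb at 322 and 484 CPM. Maf was the 1 regulator called in AN-GelMA over GelMA, with a log2 ratio of -0.76 (-0.91 to -0.62). The other regulators, among them Grhl3, Klf4, Ovol1 and Zfp750, stayed within 1.5 times in these comparisons. Beside these counts, 14.9% of all features were higher in GelMA over untreated and 17% were lower in AN-GelMA over GelMA. Of 8 genes of injured keratinocytes 5 were higher in GelMA over untreated (S100a8, S100a9, Krt6a, Krt6b and Krt17) and 4 were lower in AN-GelMA over GelMA (S100a8, Krt6b, Krt6a and S100a9). Krt6a was at 273, 473 and 267 CPM and Krt6b at 44.5, 74.0 and 33.2 CPM. Krt6a was also highest in GelMA in basal-like cells, at 224, 675 and 267 CPM. Krt17, at 407, 674 and 560 CPM in suprabasal cells, is also among the upper follicle markers. The part of follicle RNA in its level was not tested. Neutrophils also make S100a8 and S100a9. The list of 6 neutrophil markers, which includes both, summed to 45.0, 95.3 and 62.0 CPM in suprabasal cells with 1, 0 and 0 markers at 0, and the part of neutrophil RNA in these 2 genes was not tested. The immediate early genes Fos and Jun went the other way in suprabasal cells. Fos was at 198, 90.9 and 315 CPM and Jun at 412, 244 and 497 CPM, lowest in GelMA. Both were also lowest in GelMA in basal-like cells. In the injury-like cluster neither was, with Fos at 676, 551 and 389 CPM and Jun at 304, 365 and 477 CPM.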

How the data were processed

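Single cells of 3 mouse wound libraries were measured with the 10x GEM-X Flex assay. The authors deposited UMI counts per probe target and barcode, which are not normalized. They come from Cell Ranger 10.0.0, as the file headers state. The submitters' processing notes name the builds GRCm39 and mm39, so no coordinates are given beyond the RefSeq promoter windows of GRCm38.p6. Probe positions were not used here.

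Barcodes entered with 400 or more UMIs, 250 or more genes and no more than 10% of UMIs from mitochondrial genes. Scrublet called 0 doublets and had therefore not worked, so the 5% of cells with the highest scores were removed in each library. Cells were scaled to 10000 UMIs, log transformed and clustered with Scanpy 1.11.5 (2000 variable genes without the 45 members, 30 principal components, 15 neighbours, Leiden resolution 1, NumPy 2.4.6, SciPy 1.17.1, Python 3.11.15). Clusters were named from marker lists. The scoring rule, and the division of clusters with mixed markers at resolution 0.5, were set after seeing the data. Raw UMIs were then summed per class and library and divided by all UMIs of that class. Intervals are exact Poisson for CPM, exact binomial for shares and exact conditional binomial for ratios. A count of 0 was taken as 3 UMIs. The steps were tested on simulated data.

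A gene is named where it had at least 100 UMIs over keratinocyte classes, and barrier genes where they also passed 1.5 times in suprabasal cells, at most 5 each way. The members and lists were chosen with earlier results of these data known. Alternatives changed the clustering resolution, doublets, depth, variable genes, class assignment, CPM total, background, cluster mix, feature minimum and list membership. The subtraction of hair RNA was chosen after seeing the data.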

Additional observations from a re-analysis of the deposited data

Results flagged for a closer look

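Krt10, the partner keratin of Krt1, lay on opposite sides of no change in 2 cell classes in GelMA over untreated. Its log2 CPM ratio was 0.62 in suprabasal cells and -0.83 in basal-like cluster 0, where its levels were 103, 57.8 and 68.0 CPM. The difference was not tested, since each group had 1 library.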

How the results depend on the processing

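No paired analysis was possible because the 3 groups are single libraries, and so none could be left out. Of the results on lists, shares and single cells, 75 values under alternatives stayed near the reported ones and 27 moved. Of those on single genes, 905 stayed, 186 moved and 8 reversed. Sprr2h in GelMA over untreated reversed to a log2 ratio of -0.51 with cells thinned to 500 UMIs, -1.29 with members among the variable genes and -2.03 with classes given cell by cell. In AN-GelMA over untreated Sprr2h reversed to -0.96, -0.60 and -2.31 under the same settings, and Sprr2d in GelMA over untreated to -0.57 and -1.21 under the last 2. The thinned and members-included settings named 0 injury-like cells, against 139. With thinned cells Sprr2d in GelMA over untreated still kept its call. Whether the missing injury-like class moved the Sprr2d and Sprr2h ratios was not tested. The median of the homeostatic list in AN-GelMA over GelMA moved to -0.064 with thinned cells. That of the wound-induced list moved to -0.38 with members among the variable genes and to -0.41 with at least 100 UMIs per feature, which tests fewer genes, and in AN-GelMA over untreated to -0.050 with cell-by-cell classes.

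The wound-induced share of suprabasal cells moved most, but was highest in GelMA wherever all 3 values are given here. For untreated, GelMA and AN-GelMA it was 0.734%, 1.48% and 0.838% at resolution 2, 0.997%, 1.68% and 1.04% with doublets kept, and 1.08%, 1.94% and 1.07% in thinned cells. With members among the variable genes it was 1.46%, 1.80% and 1.30%, and with keratins left out of the homeostatic list 0.997%, 1.77% and 1.09%. At 1000 UMIs per cell GelMA and AN-GelMA moved to 1.43% and 0.838%, with background subtracted GelMA moved to 1.24%, and with cell-by-cell classes untreated and AN-GelMA moved to 1.05% and 0.719%. Without thinning 23.7%, 41.9% and 29.9% of suprabasal cells had a wound-induced UMI. Except where the construction is named, the cause was not tested. Depth limits the 14 genes with few UMIs, of which only Lce3c and Lce3e could be compared with untreated in suprabasal cells.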
